A study of Mus musculus with 16 samples.

Results

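The 10 genes described here belong to the amino acid stress programme of the transcription factor ATF4: Atf4 itself, Atf5, Ddit3, Trib3, Chac1, Slc7a11, Slc3a2, Asns, Psat1 and Phgdh. Each was read from the probe set that is paired with its symbol alone, and all 10 had exactly 1 such probe set, out of 19934 symbols so represented on the array. All 10 passed the filter on dim probe sets. The set was proposed with results of these arrays in view: Slc7a11 was already known to be among the largest rises of WT/GATA1s over WT. Values of WT/GATA1s against WT, and of ERG/GATA1s against the same WT arrays, are therefore a description: calls there are counted beside the share over all probe sets and nothing is read from them. ERG/GATA1s against ERG Tg is the comparison that sets none of those arrays against each other, though its fit shares their spread. Whether its own results were also in view when the set was proposed is not known. The other tests (stage, ERG Tg against WT and the interactions) are contrasts the choice did not name, but they include some of those arrays.

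ATF4 is made when cells phosphorylate the translation factor eIF2alpha, which happens when amino acids run short, when unfolded protein builds up in the endoplasmic reticulum, when haem is scarce in red cell precursors or when the mitochondria are stressed. Most protein synthesis then slows, while the Atf4 message is translated better, so that the amount of ATF4 protein can change without a change in its RNA. ATF4 binds DNA as a dimer with C/EBP proteins at a composite element and raises genes that import amino acids, make them, charge them onto tRNA and, in prolonged stress, promote cell death. The fetal liver is the main site of red cell production at the stages studied, with megakaryocyte, granulocyte and macrophage precursors and hepatoblasts beside the red cell precursors.

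RNA came from single-cell suspensions of mouse fetal liver at embryonic day 12.5 (E12.5) and day 14.5 (E14.5). There were 4 genotypes: WT (wild type), ERG Tg (carrying a transgene for the ETS transcription factor ERG), WT/GATA1s (carrying a knock-in of GATA1s, the short form of the X-linked red cell and megakaryocyte factor GATA1, without the ERG transgene) and ERG/GATA1s (carrying both). Each of the 8 stage and genotype groups held 2 arrays, 1 labelled female and 1 labelled male, 16 in all. The study's stated purpose was to set the genes that ERG activates or represses with full-length GATA1 against those with GATA1s. The labels do not give the promoter or species of the transgene, the number of GATA1s copies in females, or whether the RNA of a sample came from 1 embryo or from several, so the p-values speak only for the spread among these arrays, which may be technical.

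Array medians lay between 4.79 and 4.94 log2 signal, and signals ran from 1.96 to 13.32. The tissue label was borne out by both red cell and liver markers: Klf1 lay between 8.79 and 9.70 and Alb between 10.95 and 12.22. Gata1 lay between 9.22 and 10.02 and Erg between 5.32 and 6.01, and whether these probe sets read the GATA1s allele or the transgene was not tested. On 3 arrays Xist and the Y-linked genes opposed the labelled sex (the E12.5 WT/GATA1s male, the E12.5 ERG/GATA1s male and the E14.5 ERG/GATA1s female). The E12.5 WT male and the E14.5 ERG Tg male carried both Xist and Y-linked signal. Most calls of the 10 genes that rest on the 3 opposing arrays are given without them too, here or under the dependence on processing. Those for the stages within WT/GATA1s or within ERG/GATA1s are given with all arrays only. So are the calls of the related gene lists and cell type markers, whose dependence on the 3 arrays is not given here.

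The stretches of promoter that carry an exact match to the ATF4-C/EBP composite element are printed first, because ATF4 binds at that element. The letters searched were TGATGNAA, on both strands, in RefSeq windows of 300 bases (250 before the start site to 50 after it, build GRCm38.p6). All 10 genes had a window. A match was present in 3.97% of all 32851 windows, and 4 of the 10 genes had one. The matches are in capitals below, and each stretch reads 5′ to 3′ on the strand of its gene.
Slc7a11, chr3:50443627-50443706, minus strand, bases -93 to -14 from the start site: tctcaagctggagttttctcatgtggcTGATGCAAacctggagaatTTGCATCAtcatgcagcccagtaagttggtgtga
Chac1, chr2:119351013-119351092, plus strand, bases -229 to -150: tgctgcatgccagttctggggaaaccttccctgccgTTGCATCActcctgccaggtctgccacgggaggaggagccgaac
Asns, chr6:7693210-7693289, minus strand, bases -80 to -1: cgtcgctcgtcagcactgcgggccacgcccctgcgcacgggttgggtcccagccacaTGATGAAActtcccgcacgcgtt
Trib3, chr2:152344028-152344057, minus strand, bases 4 to 33 after the start site: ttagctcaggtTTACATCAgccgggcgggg
The Slc7a11 promoter held 2 matches that face each other, the first on the strand of the gene and the second on the opposite strand. The matches in Chac1 and Trib3 were on the opposite strand and that in Asns on the strand of the gene. Ddit3, Atf4, Atf5, Slc3a2, Psat1 and Phgdh had no exact match in their windows, which says only that these letters do not occur there.

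The 10 genes did not move as a block. Ddit3, Trib3, Chac1 and Slc7a11 varied widely over the 8 groups, and the other 6 stayed within a narrow band. The range of the 8 group means was 2.96 on the log2 scale for Chac1, 2.93 for Slc7a11, 2.49 for Trib3 and 1.92 for Ddit3. For the other genes it was at most 0.62. On this scale a difference of 1 is 2-fold. All 4 wide-ranging genes had their lowest group mean in E14.5 WT, as did Atf4 (7.43), Atf5 (6.28) and Phgdh (7.06). Of the 4 genes with an element match, 3 were wide-ranging and Asns was not, while Ddit3 was wide-ranging without a match.

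**Figure D1:**
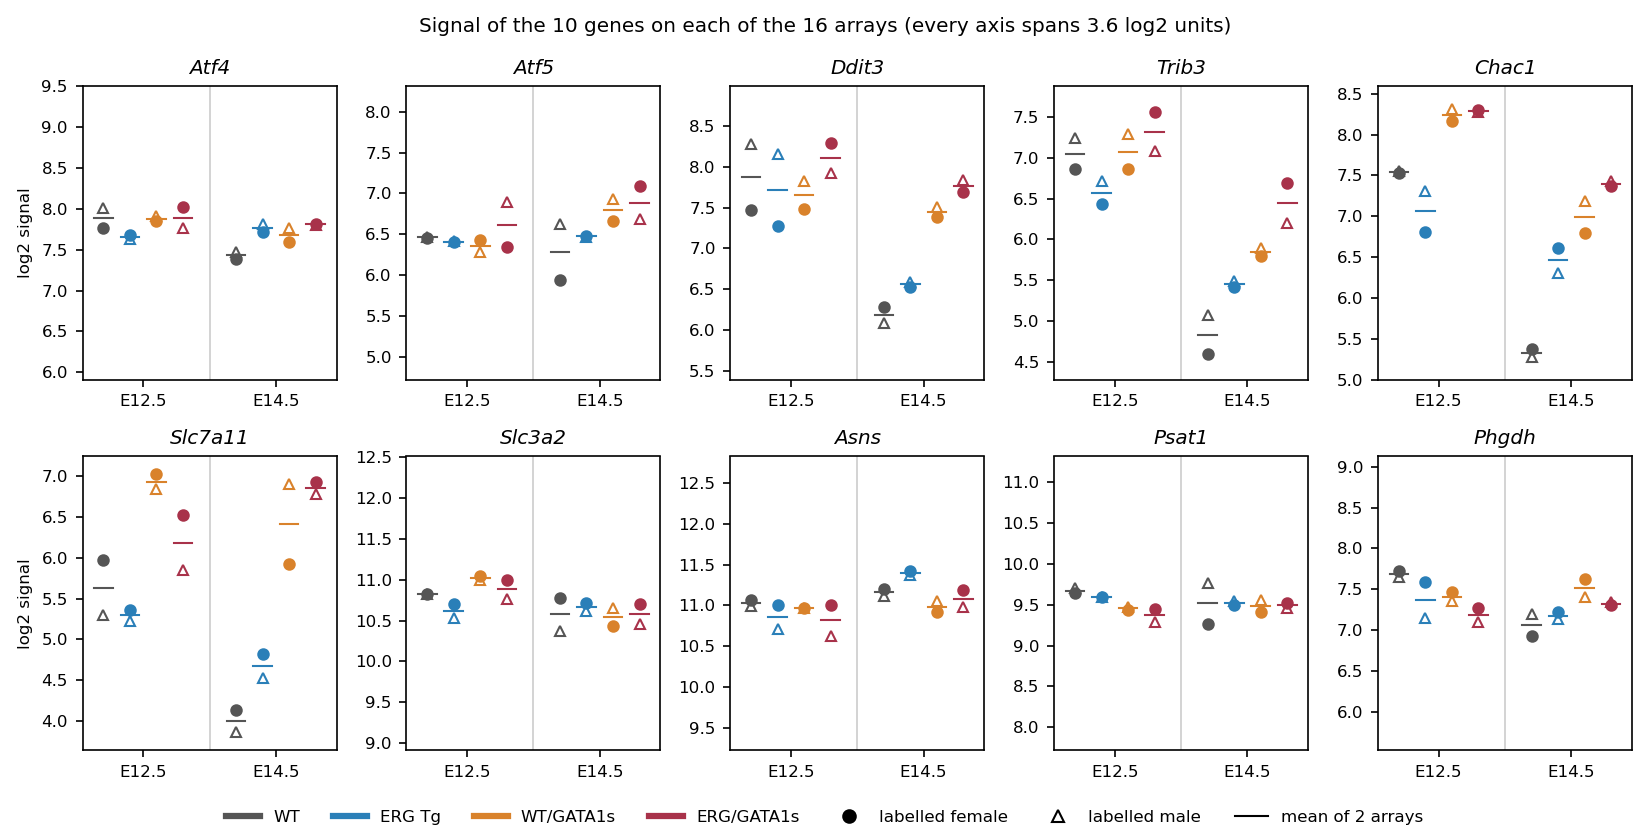
Log2 signal (vertical axis) of each of the 10 genes on each array, by stage and genotype; circles are arrays labelled female, triangles arrays labelled male, and bars the means of 2 arrays. Ddit3, Trib3, Chac1 and Slc7a11 were lowest in E14.5 WT, as were Atf4, Atf5 and Phgdh. Slc3a2, Asns, Psat1 and Phgdh spanned at most 0.62 between group means.

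Slc7a11 encodes the light chain of the cystine-glutamate exchanger, which brings in the cystine that cells use for glutathione. At E12.5 its log2 signal was 5.97 and 5.30 in WT (female, then male), 5.36 and 5.23 in ERG Tg, 7.02 and 6.84 in WT/GATA1s, and 6.52 and 5.85 in ERG/GATA1s. The E14.5 values were 4.14 and 3.86 in WT, 4.82 and 4.53 in ERG Tg, 5.92 and 6.90 in WT/GATA1s, and 6.93 and 6.78 in ERG/GATA1s. Within E14.5 every GATA1s array was above every array without GATA1s; at E12.5 the ERG/GATA1s male (5.85) fell below the WT female (5.97). Ordered by group mean, E12.5 WT/GATA1s (6.93) and E14.5 ERG/GATA1s (6.86) came first and did not differ beyond the pooled SD of 0.36 within groups. E14.5 WT/GATA1s (6.41) and E12.5 ERG/GATA1s (6.18) followed and likewise lay within that spread, as did E12.5 WT (5.64) and E12.5 ERG Tg (5.30). E14.5 ERG Tg (4.68) and E14.5 WT (4.0) were last, each lower than its neighbour by more than the pooled SD.

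Chac1 encodes a cytosolic enzyme that breaks glutathione down. Its signal at E12.5 was 7.53 and 7.55 in WT, 6.81 and 7.31 in ERG Tg, 8.17 and 8.31 in WT/GATA1s, and 8.30 and 8.28 in ERG/GATA1s. The E14.5 values were 5.37 and 5.28 in WT, 6.61 and 6.31 in ERG Tg, 6.79 and 7.19 in WT/GATA1s, and 7.37 and 7.43 in ERG/GATA1s. Within each stage the 4 GATA1s arrays lay above the 4 arrays without it, and the E14.5 WT arrays stood apart at the bottom. The 2 E12.5 GATA1s groups (8.29 and 8.24) did not differ beyond the pooled SD of 0.18.

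Trib3 encodes a pseudokinase that is induced by ATF4 and dampens it in turn. At E12.5 its signal was 6.86 and 7.24 in WT, 6.43 and 6.72 in ERG Tg, 6.86 and 7.29 in WT/GATA1s, and 7.56 and 7.08 in ERG/GATA1s. The E14.5 values were 4.60 and 5.07 in WT, 5.42 and 5.49 in ERG Tg, 5.80 and 5.90 in WT/GATA1s, and 6.69 and 6.20 in ERG/GATA1s. At E12.5 the ERG Tg arrays lay below all others and the other 3 genotypes overlapped, whereas at E14.5 the 4 groups did not overlap and lay in the order WT, ERG Tg, WT/GATA1s, ERG/GATA1s from low to high.

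Ddit3 encodes CHOP, a C/EBP-family factor linked to cell death in prolonged stress. At E12.5 its signal was 7.47 and 8.28 in WT, 7.27 and 8.16 in ERG Tg, 7.48 and 7.83 in WT/GATA1s, and 8.29 and 7.92 in ERG/GATA1s. The E14.5 values were 6.28 and 6.09 in WT, 6.53 and 6.59 in ERG Tg, 7.38 and 7.51 in WT/GATA1s, and 7.69 and 7.84 in ERG/GATA1s. At E12.5 the genotypes overlapped and the 2 arrays of a group differed by up to 0.89, while at E14.5 the GATA1s arrays were all above the others.

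The remaining 6 genes were steadier. Atf4 lay between 7.39 and 8.02 over the 16 arrays, and Atf5, a related factor that also answers to eIF2alpha phosphorylation, between 5.94 and 7.09. Slc3a2, the heavy chain that Slc7a11 and several other amino acid carriers need at the cell surface, lay between 10.37 and 11.05. Asns, which makes asparagine, lay between 10.63 and 11.42. Psat1 and Phgdh, enzymes of serine synthesis, lay between 9.26 and 9.77 and between 6.93 and 7.72.

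The effect of GATA1s was tested on the ERG background, ERG/GATA1s against ERG Tg, whose arrays are not those of the Slc7a11 rise known beforehand. Earlier results of the series were in view when the set was proposed, so it is no independent test. Over both stages (4 arrays against 4) Slc7a11 and Chac1 rose most, with Trib3 and Ddit3 behind them. Of the 10 genes 7 were higher and 3 (Asns, Psat1 and Phgdh) were lower. In limma's test across all genes 4 of the 10 genes passed an adjusted p of 0.05, all higher, against 9.02% of the 16258 probe sets tested in either direction and 4.02% higher. The share over all probe sets moved widely with the arrays used, as given under the dependence on processing. Slc7a11 rose 2.90-fold (log2 1.53 ± 0.20 SE, adjusted p = 0.000576), in 4 of 4 pairs matched for stage and labelled sex. Chac1 rose 2.12-fold (1.09 ± 0.12, adjusted p = 0.000209), also in 4 of 4 pairs. For both genes all 4 ERG/GATA1s arrays were above all 4 ERG Tg arrays, and the share of all probe sets so separated is not given here. Trib3 rose 1.82-fold (0.87 ± 0.16, adjusted p = 0.00465), in 4 of 4 pairs; the groups overlapped when the stages were pooled. Ddit3 rose 1.74-fold (0.80 ± 0.18, adjusted p = 0.0138), in 3 of 4 pairs.

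Without the 3 arrays of opposing sex markers, Slc7a11 (1.67, adjusted p = 0.0256), Trib3 (0.87, adjusted p = 0.0177) and Chac1 (1.11, adjusted p = 0.0213) still passed in limma, and Ddit3 (0.93, adjusted p = 0.0812) did not. The Ddit3 call was also lost without the E12.5 ERG Tg female (0.61, adjusted p = 0.0729), the E14.5 ERG Tg male (0.75, adjusted p = 0.0707) or the E14.5 ERG/GATA1s female (0.77, adjusted p = 0.064), each left out in turn. Leaving out any 1 of the 16 arrays did not end the other 3 calls.

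The genes that did not pass differed little between ERG/GATA1s and ERG Tg. The log2 difference and its 95% interval were 0.09 (-0.13 to 0.32) for Slc3a2, 0.14 (-0.07 to 0.35) for Atf4 and 0.31 (-0.02 to 0.63) for Atf5. For the synthesis enzymes they were -0.17 (-0.39 to 0.04) for Asns, -0.13 (-0.36 to 0.10) for Psat1 and -0.02 (-0.25 to 0.21) for Phgdh. These intervals leave out, for each of the 6 genes, the rise seen in Slc7a11. Slc7a11 and its partner chain Slc3a2 thus had intervals (1.11 to 1.96 and -0.13 to 0.32) that do not meet. The median of the 10 genes was 0.22, against 0 over all probe sets tested.

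By stage, only Chac1 passed at E12.5, where 1.05% of all probe sets did: ERG/GATA1s exceeded ERG Tg by 1.23 ± 0.17 (adjusted p = 0.0287 in limma). The Chac1 call was lost without the E12.5 ERG Tg female (0.99, adjusted p = 0.13) or the E12.5 ERG/GATA1s male (1.29, adjusted p = 0.0755), and without the 3 opposing arrays (1.29, adjusted p = 0.274). Slc7a11 (0.89 ± 0.28, adjusted p = 0.134), Trib3 (0.75 ± 0.22, adjusted p = 0.117) and Ddit3 (0.39 ± 0.25, adjusted p = 0.497) did not pass at that stage. At E14.5 4 of the 10 passed, all higher, against 7.34% of all probe sets in either direction and 3.6% higher. Slc7a11 rose by 2.18 ± 0.28 (adjusted p = 0.000462), Ddit3 by 1.21 ± 0.25 (adjusted p = 0.0103), Trib3 by 0.99 ± 0.22 (adjusted p = 0.0168) and Chac1 by 0.94 ± 0.17 (adjusted p = 0.00486).

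Both E14.5 ERG/GATA1s arrays had male-like sex markers, whereas the ERG Tg arrays had female-like and mixed ones, and both E12.5 ERG/GATA1s arrays had female-like markers, so sex was not balanced over these groups. Without the 3 opposing arrays, Slc7a11 alone still passed at E14.5 (2.14, adjusted p = 0.0421), while Ddit3 (1.11, adjusted p = 0.128), Trib3 (0.61, adjusted p = 0.111) and Chac1 (0.92, adjusted p = 0.103) did not. Leaving out the E14.5 ERG Tg male gave adjusted p-values in limma of 0.109 for Ddit3, 0.126 for Trib3 and 0.102 for Chac1. Leaving out the E14.5 ERG/GATA1s female gave 0.0925, 0.242 and 0.0542 for the same genes. Without the E14.5 ERG Tg female they were 0.0538 for Ddit3 and 0.103 for Trib3, and without the E14.5 ERG/GATA1s male the Ddit3 call was lost too (adjusted p = 0.0662).

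**Figure D2:**
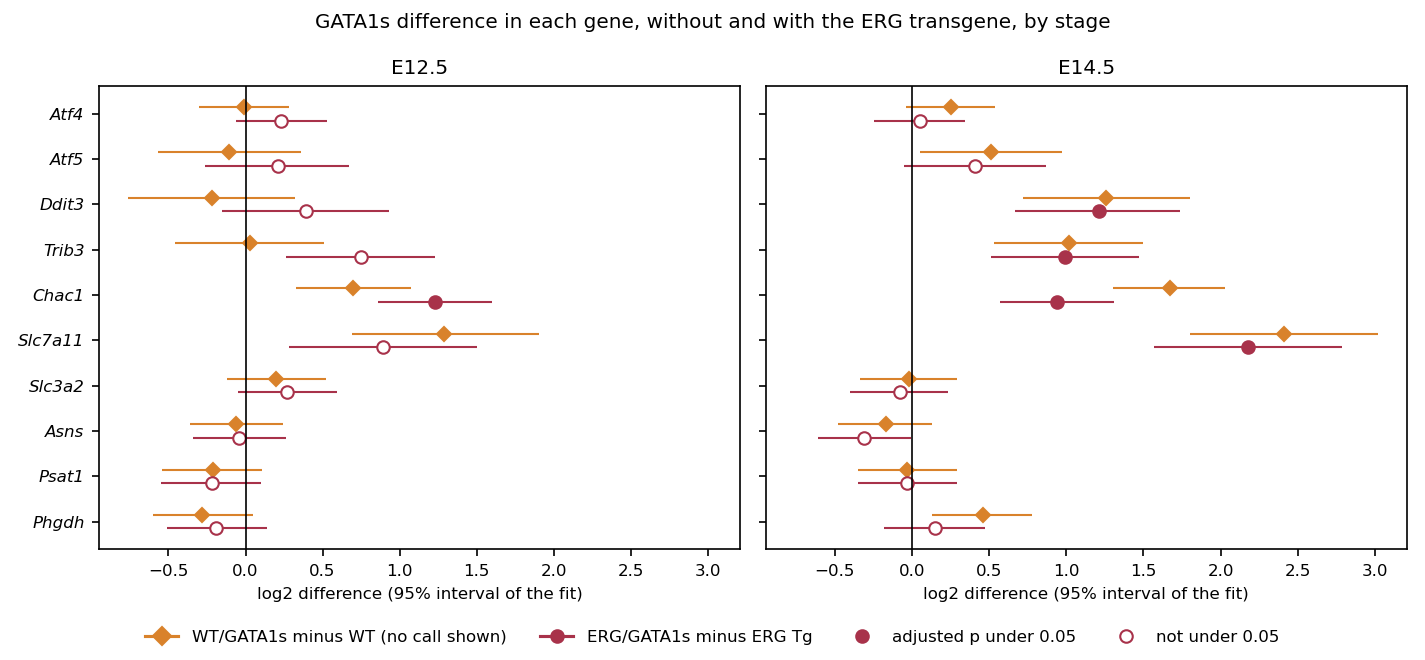
Log2 difference (horizontal axis, with the 95% interval of limma's fit) of each gene for WT/GATA1s minus WT and ERG/GATA1s minus ERG Tg, at E12.5 (left) and E14.5 (right); for ERG/GATA1s minus ERG Tg, filled circles have an adjusted p under 0.05 and open circles do not, and WT/GATA1s minus WT is drawn as diamonds with no call. Slc7a11 was higher with GATA1s in all 4 comparisons, and the intervals of Atf4, Slc3a2 and Psat1 crossed 0 in all 4.

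On the background without ERG, which the choice of genes used, the same 4 genes had the highest differences. Over both stages WT/GATA1s exceeded WT by 1.85 for Slc7a11, 1.18 for Chac1, 0.52 for Ddit3 and 0.52 for Trib3. The adjusted p was under 0.05 for 2 of the 10, against 3.81% of all probe sets, from which nothing is read; by stage these were 1 of the 10 beside 1.33% at E12.5 and 4 of the 10 beside 1.07% at E14.5. At E14.5, where the sex markers of the WT and WT/GATA1s arrays match their labels, the Slc7a11 difference was 1.78 between females and 3.04 between males. The Chac1 difference was 1.42 between females and 1.91 between males there. At E12.5 Ddit3 and Trib3 differed by 0.01 and 0.00 between females and by -0.45 and 0.05 between males.

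Whether the GATA1s difference itself differed with ERG was tested with an interaction over both stages. None of the 10 passed in limma, none had an unadjusted p under 0.05, and 0.0123% of all probe sets passed. The GATA1s difference with ERG minus that without it was -0.32 (-0.92 to 0.29) for Slc7a11, -0.10 (-0.47 to 0.27) for Chac1, 0.35 (-0.14 to 0.83) for Trib3 and 0.28 (-0.26 to 0.81) for Ddit3. These intervals allow differences of either sign.

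With the ERG transgene alone the group means of the 10 genes lay lower at E12.5 and higher at E14.5, mostly within the error. The share of all probe sets that lay in each direction is not given here. Over both stages ERG Tg against WT gave 0 calls among the 10 in limma, with 0.283% of all probe sets passing and 1 of the 10 at an unadjusted p under 0.05. At E12.5 all 10 genes were lower in ERG Tg, with a median of -0.22, and 0 of the 10 and 0% of all probe sets passed in limma; at an unadjusted p under 0.05 these counts were 1 and 666. At E14.5 all 10 were higher by group mean, with a median of 0.29 against 0 over all probe sets. The Psat1 means were both 9.52 after rounding. Between males ERG Tg was lower for Atf5 (-0.16), Psat1 (-0.23) and Phgdh (-0.07), and between females for Slc3a2 (-0.07). An unadjusted p under 0.05 in limma was reached there by 4 of the 10 and by 1554 of the 16258 probe sets tested. Chac1 alone passed there (1.14 ± 0.17, adjusted p = 0.0041 in limma, 2 of 2 pairs), against 1.69% of all probe sets. That call was lost without the E14.5 ERG Tg female (0.91, adjusted p = 0.141). Slc7a11 was 0.67 ± 0.28 higher (adjusted p = 0.417) and Trib3 0.62 ± 0.22 (adjusted p = 0.29). These 2 comparisons and WT/GATA1s against WT share the WT arrays.

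With both alleles, ERG/GATA1s exceeded WT over both stages by 1.70 for Slc7a11, 1.41 for Chac1, 0.94 for Trib3 and 0.91 for Ddit3, again against the WT arrays that the choice used. Here 4 of the 10 had an adjusted p under 0.05, against 10.6% of all probe sets, and 3 without the 3 opposing arrays, where Ddit3 (1.04) had an adjusted p of 0.0626 in limma. ERG/GATA1s against WT/GATA1s gave no call among the 10 in limma (2 at an unadjusted p under 0.05), and 0.117% of all probe sets passed. The differences were -0.15 (-0.58 to 0.28) for Slc7a11, 0.23 (-0.03 to 0.49) for Chac1, 0.42 (0.08 to 0.76) for Trib3 and 0.39 (0.01 to 0.76) for Ddit3.

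Between the stages, Trib3, Chac1, Ddit3, Slc7a11 and Slc3a2 fell and Asns rose, as means over the 4 genotypes (8 arrays against 8). That is 6 of 10 genes in limma, close to the 56.2% of all probe sets that passed, so the count itself sets the 10 genes apart in no way. The sizes were uneven. Trib3 fell by 1.36 ± 0.11 on the log2 scale (adjusted p = 5.23e-07), Chac1 by 1.24 ± 0.09 (adjusted p = 1.21e-07) and Ddit3 by 0.85 ± 0.12 (adjusted p = 8e-05). Slc7a11 fell by 0.53 ± 0.14 (adjusted p = 0.0066) and Slc3a2 by 0.25 ± 0.07 (adjusted p = 0.0121). Asns rose by 0.24 ± 0.07 (adjusted p = 0.0115), a call lost without the 3 opposing arrays (adjusted p = 0.078); the other 5 calls held without them. Atf4 differed by -0.16 (adjusted p = 0.0625).

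For Trib3, Chac1, Ddit3 and Slc7a11 the fall was larger in WT than in any other genotype. The WT difference was also the lowest for Atf4 (-0.46), Atf5 (-0.17), Psat1 (-0.16) and Phgdh (-0.62). Apart from the test of GATA1s by stage given next, these differences between genotypes were not tested. Chac1 was 4.64-fold lower at E14.5 than at E12.5 in WT (adjusted p = 1.27e-05 in limma) and 1.52-fold lower in ERG Tg. Trib3 was 4.64-fold lower in WT and between 1.83-fold and 2.34-fold lower in the other genotypes. Ddit3 was 3.23-fold lower in WT and 2.23-fold lower in ERG Tg, while in WT/GATA1s (-0.21 ± 0.25) and ERG/GATA1s (-0.34 ± 0.25) it did not pass. Slc7a11 was 3.11-fold lower in WT (adjusted p = 0.00186) and did not pass in the other genotypes, with a difference of 0.67 ± 0.28 in ERG/GATA1s. Among the steadier genes, Phgdh (1.54-fold, adjusted p = 0.0131) and Atf4 (1.38-fold, adjusted p = 0.0321) were lower at E14.5 in WT, Slc3a2 was 1.39-fold lower in WT/GATA1s (adjusted p = 0.0327), and Asns rose by 0.53 ± 0.14 in ERG Tg (adjusted p = 0.0177). The share of all probe sets that passed was 18.2% in WT, 17.6% in ERG Tg, 22.5% in WT/GATA1s and 21.9% in ERG/GATA1s.

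**Figure D3:**
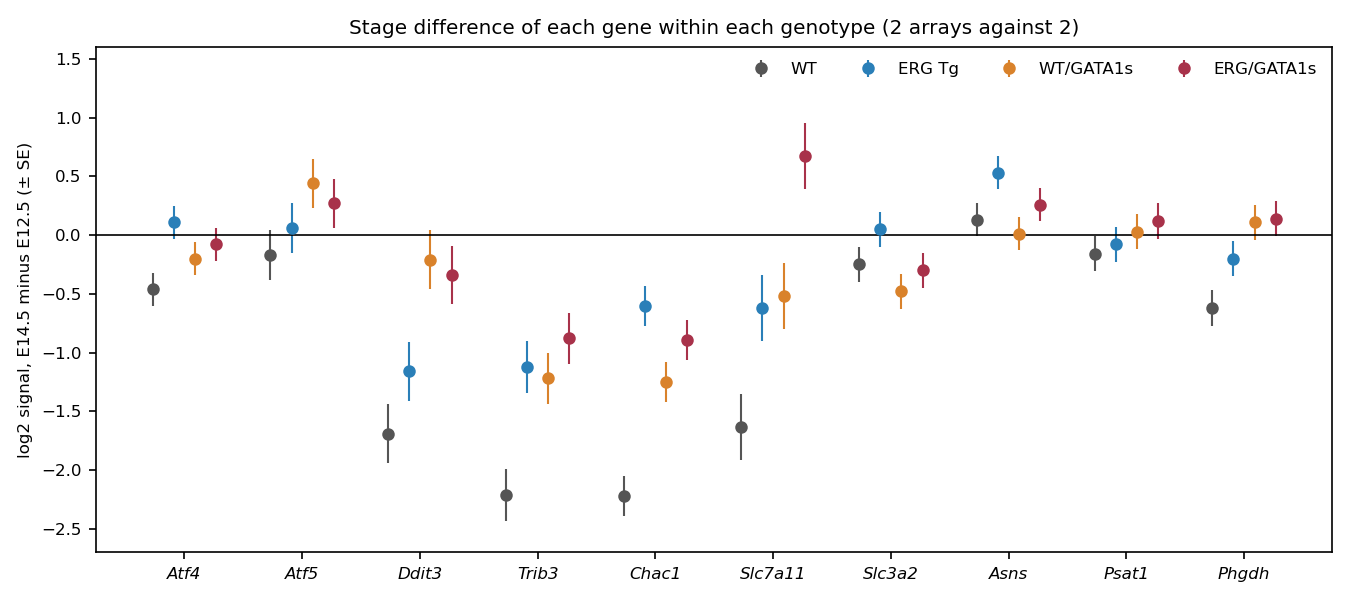
Log2 signal at E14.5 minus that at E12.5 (vertical axis, ± SE of limma's fit, 2 arrays against 2) for each gene, coloured by genotype. WT points (grey) are lowest for Ddit3, Trib3, Chac1 and Slc7a11, at -1.69, -2.21, -2.22 and -1.63. They are also lowest, at smaller sizes, for Atf4, Atf5, Psat1 and Phgdh.

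The test of the GATA1s difference at E14.5 minus that at E12.5, over both backgrounds, passed in limma for Slc7a11 (1.20 ± 0.28, adjusted p = 0.0429) and Ddit3 (1.15 ± 0.25, adjusted p = 0.031), against 2.24% of all probe sets. These tests rest in part on the WT and WT/GATA1s arrays that the choice of genes used, and both calls were lost without the 3 opposing arrays (1.01, adjusted p = 0.422, and 0.92, adjusted p = 0.365). Leaving out 1 array at a time ended each of the 2 calls for 11 of the 16 arrays. Trib3 (0.62 ± 0.22, adjusted p = 0.201) and Chac1 (0.34 ± 0.17, adjusted p = 0.39) did not pass.

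Other genes of the programme are grouped here by role, for ERG/GATA1s against ERG Tg over both stages; the lists were drawn up with earlier results of these arrays known, the median over all probe sets was 0, and 9.02% of them passed (4.02% higher). Of 11 measured aminoacyl-tRNA synthetases, which load amino acids onto tRNA, none rose and 1 fell in limma, with a median of -0.20. Iars, for isoleucine, fell by 0.37 ± 0.09 (adjusted p = 0.0197), and Lars and Cars differed by -0.32 and -0.27. Of 7 further amino acid transporters none rose and 1 fell: Slc1a5, a glutamine carrier, by 0.51 ± 0.14 (adjusted p = 0.0326). Of 6 further enzymes of serine, one-carbon and proline metabolism none passed, the median being -0.09 and Aldh18a1 lowest in p (-0.24, adjusted p = 0.168).

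Among regulators and effectors of the integrated stress response 4 of 13 rose and none fell, with a median of 0.28, beside 4.02% of all probe sets called higher. Atf3, a stress-induced factor of the same family, rose by 1.33 ± 0.17 (adjusted p = 0.000518), Nupr1 by 0.47 ± 0.11 (adjusted p = 0.0194), Cebpb by 0.46 ± 0.11 (adjusted p = 0.0204) and Sesn2, a sensor in amino acid signalling, by 0.39 ± 0.09 (adjusted p = 0.0214). None of the 4 eIF2alpha kinases passed (median -0.11), including Eif2ak1, the haem-regulated kinase of red cell precursors (-0.34, adjusted p = 0.131). None of 13 chaperones and folding enzymes of the endoplasmic reticulum passed (median 0.15), Hspa5 being 0.28 higher (adjusted p = 0.104). Of 9 targets of NRF2, the factor of the antioxidant response that also acts on Slc7a11, 3 rose: Gsr by 0.51 (adjusted p = 0.0126), Hmox1 by 0.67 (adjusted p = 0.0157) and Me1 by 0.51 (adjusted p = 0.0278). The glutathione synthesis genes Gclm and Gclc, also NRF2 targets, differed by -0.14 and -0.33 and did not pass.

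**Figure D4:**
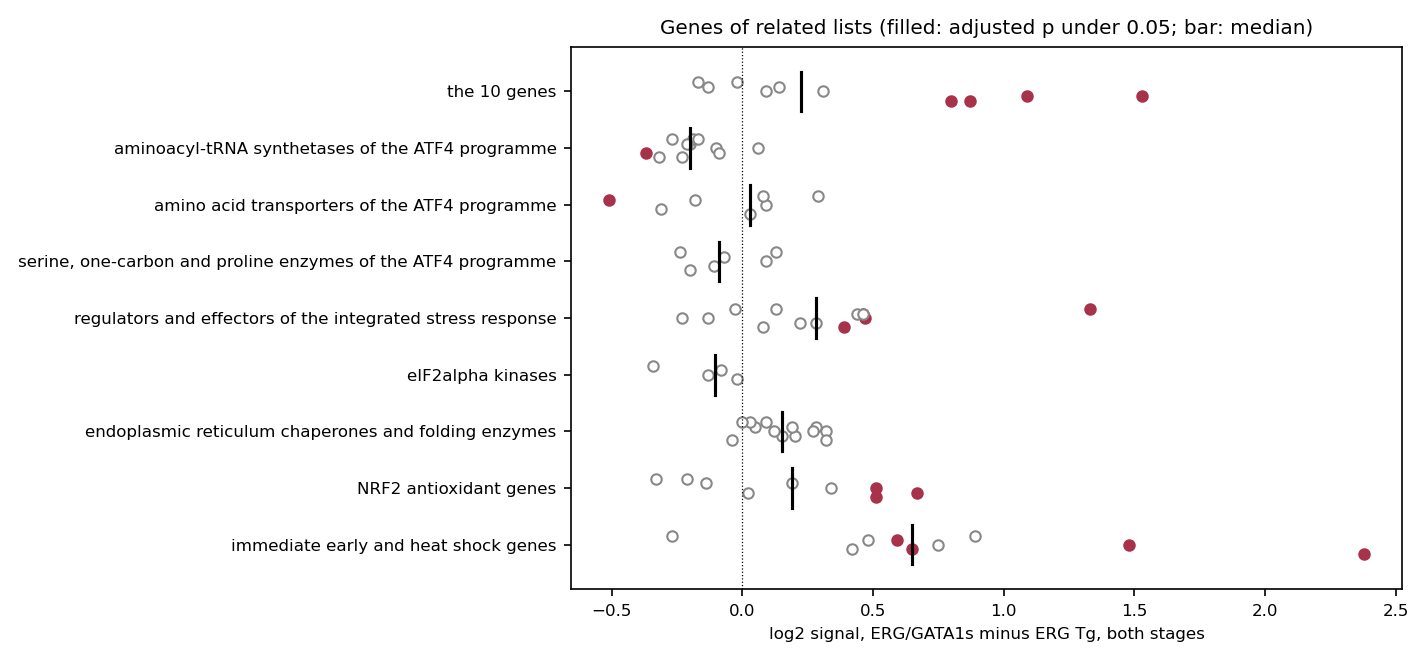
Log2 difference of ERG/GATA1s from ERG Tg over both stages (horizontal axis) for the measured genes of each list, with a bar at the median; filled points have an adjusted p under 0.05 in limma. Medians were 0.22 for the 10 genes, -0.20 for the synthetases, 0.28 for the stress response regulators and 0.65 for the immediate early and heat shock genes.

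Immediate early and heat shock genes, which also rise with the handling of cells, moved with the wide-ranging members and with some of the steadier ones. In ERG/GATA1s against ERG Tg 4 of the 9 measured rose in limma and none fell (median 0.65), beside 4.02% of all probe sets called higher, led by Fosb (2.38), Jun (1.48) and Fos (0.65). Between the stages 8 of 9 fell and none rose (median -1.23), where 56.2% of all probe sets passed and 27.2% were lower. The mean signal of the list on an array ran from 7.27 to 7.77 in the E12.5 groups without GATA1s and from 7.92 to 8.17 in those with it. At E14.5 it ran from 5.71 to 6.22 in WT and from 6.14 to 6.22 in ERG Tg, and from 6.93 to 7.11 in WT/GATA1s and 7.29 to 7.30 in ERG/GATA1s. Over the 16 arrays the list mean correlated with Trib3 (Pearson r 0.97, Spearman rho 0.96), Chac1 (0.93 and 0.95), Ddit3 (0.90 and 0.81) and Slc7a11 (0.73 and 0.60). Within the 8 arrays of a stage r was 0.81 at E12.5 and 0.93 at E14.5 for Trib3, 0.91 and 0.89 for Chac1, 0.56 and 0.95 for Ddit3, and 0.69 and 0.95 for Slc7a11. Without the 2 arrays farthest from the median of the list r was 0.95, 0.91, 0.86 and 0.59 for the same genes. Of the steadier genes, Atf4 (r 0.70, rho 0.65) and Slc3a2 (0.53 and 0.60) also followed the list over the 16 arrays, while Asns ran against it (-0.70 and -0.67). For Atf5 and Phgdh r was 0.86 and 0.76 within E14.5 but -0.07 and -0.56 within E12.5. The arrays share the stage and genotype groups, so these values are descriptive, and the part of these genes in the result was not tested.

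Markers of other cell types moved as well. Among 7 measured megakaryocyte and platelet markers 5 rose in ERG/GATA1s against ERG Tg, and all 7 measured granulocyte and monocyte markers rose (medians 1.30 and 1.44; 4.02% of all probe sets were called higher), while 5 of 8 red cell markers fell (median -0.43). The mean platelet signal on an array was 8.0 to 8.25 in ERG Tg, 8.69 to 8.88 in E12.5 ERG/GATA1s and 9.39 to 9.49 in E14.5 ERG/GATA1s. The platelet mean correlated with Slc7a11 over the 16 arrays (r 0.84, rho 0.84; r 0.98 within E12.5, 0.93 within E14.5 and 0.80 without the 2 farthest arrays). For Chac1 the pooled r was 0.49 (0.83 within E12.5 and 0.76 within E14.5). For Ddit3 it was 0.33 (-0.14 and 0.91) and for Trib3 0.29 (0.44 and 0.82), so at E14.5 all 4 wide-ranging genes followed the platelet mean. They ran against the red cell mean there (r -0.88 for Trib3, -0.84 for Ddit3, -0.84 for Chac1 and -0.80 for Slc7a11). This was not particular to them. At E14.5 r with the platelet and red cell means was 0.75 and -0.70 for Atf5, 0.50 and -0.74 for Atf4, and 0.55 and -0.48 for Phgdh. Asns (-0.66 and 0.35) and Slc3a2 (-0.13 and 0.26) went the other way, and Psat1 was near 0.02 and -0.15. With the granulocyte and monocyte mean r at E14.5 was 0.63 for Slc7a11, 0.62 for Ddit3, 0.48 for Trib3 and 0.37 for Chac1. In these suspensions a change in the share of a cell type and a change of RNA per cell cannot be told apart, and the part of cell composition in the rise of these genes was not tested.

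**Figure D5:**
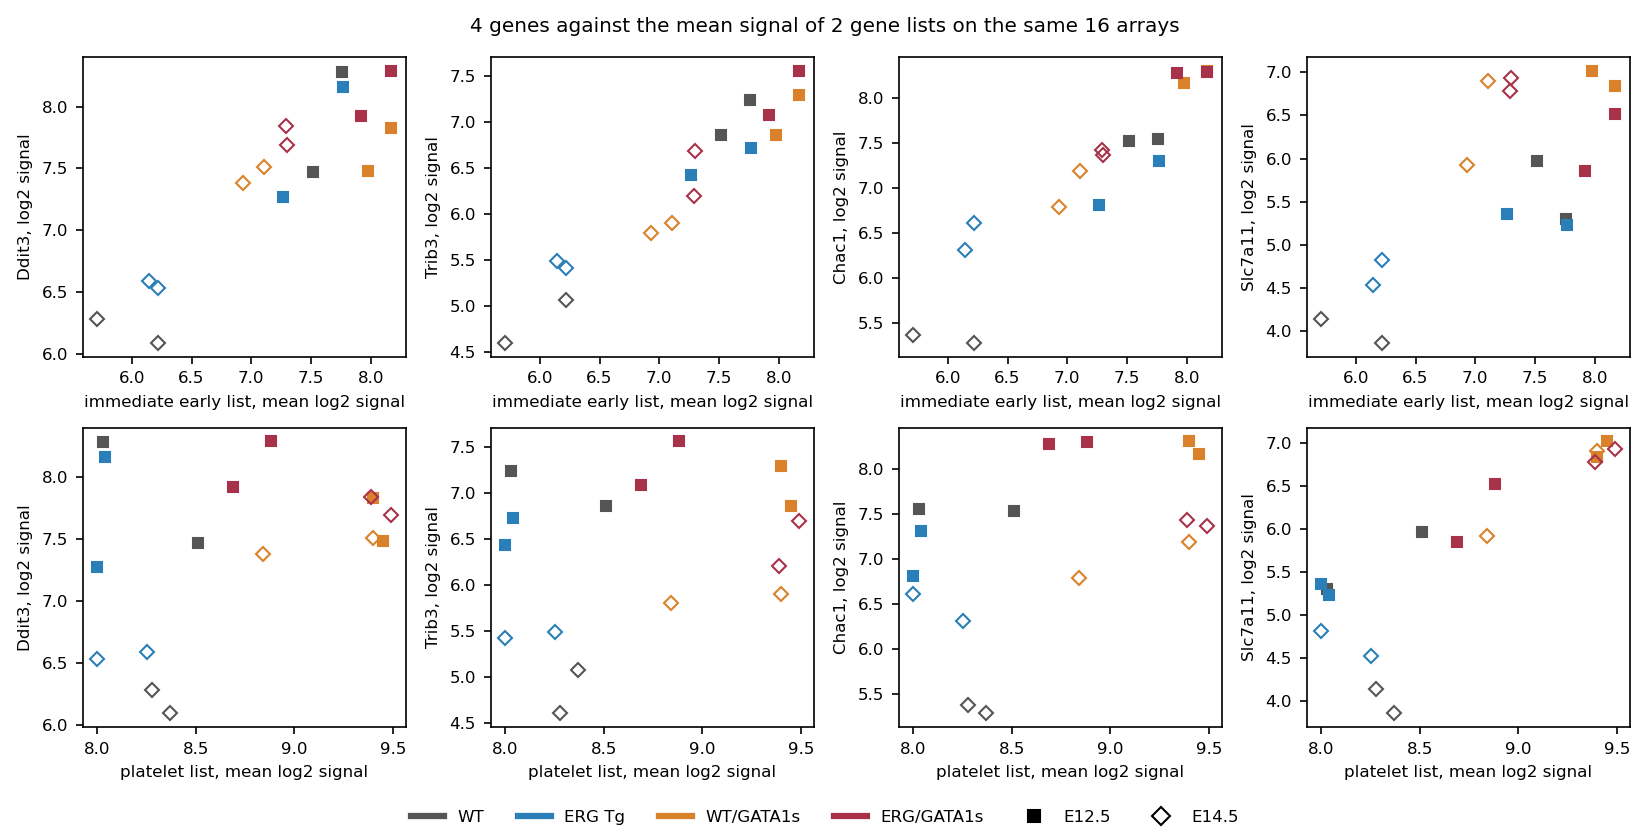
Log2 signal of Ddit3, Trib3, Chac1 and Slc7a11 (vertical axes) against the mean log2 signal of the immediate early and heat shock list (top) and of the platelet list (bottom) on the 16 arrays; colours are genotypes, filled squares E12.5 and open diamonds E14.5. Trib3 and Chac1 lay close to a line in the top row (r 0.97 and 0.93) and Slc7a11 in the bottom row (r 0.84).

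Among themselves the wide-ranging genes correlated over the 16 arrays, with r 0.93 for Trib3 and Chac1, 0.90 for Ddit3 and Trib3 and 0.86 for Ddit3 and Chac1. For Slc7a11 r was 0.81 with Chac1, 0.69 with Ddit3 and 0.66 with Trib3. Atf4, 1 of the steadier genes, also correlated with them: 0.80 with Trib3, 0.80 with Chac1, 0.70 with Ddit3 and 0.62 with Slc7a11. Over all 45 pairs of the 10 genes the median r was 0.23, and 13 pairs exceeded 0.5. Of all other genes tested, those most like Slc7a11 over the 16 arrays were the neuropeptide gene Npy (r 0.956), the platelet protein gene Mmrn1 (0.945), the carbonic anhydrase gene Car1 (0.945), Plek (0.937), which encodes a protein of platelets and leukocytes, and Dmxl2 (0.936). Those most like the mean of the 10 standardised genes were Efhd2 (0.938), Ptk2b (0.912), Mknk2 (0.887), Capzb (0.885) and Per1 (0.883). These were picked as the highest correlations and share the group structure of the arrays.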

How the data were processed

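RNA of genotyped embryos' liver suspensions was biotin-labelled with an Affymetrix whole-transcript kit, per the labels' protocols. The authors deposited log2 signals, 1 per probe set and array, with 2 decimals; RMA (version not given) is named in the submitters' processing notes. Genome build and scanner files were not used here.

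Of 28270 probe sets, 21780 had 1 symbol, 1617 several and 4873 none. Each symbol was read from its probe set of highest mean, and a probe set had to exceed 3.74 (the 30th percentile of the table) on 2 or more arrays, which left 16258 units (516 with several symbols). All 16 arrays entered 1 fit in R 4.3.3 with limma 3.58.1 (lmFit, eBayes), with a mean per group and labelled sex as covariate and 7 residual degrees of freedom. Tests were two-sided, with Benjamini-Hochberg adjustment over all units at 0.05, for 14 comparisons. Precision is limited by the number of arrays. The fit was tested on simulated data.

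The members, the lists and the alternatives were chosen with earlier results of these data known. All 10 members are named; of each related list up to 3 genes of smallest adjusted p are named, and beyond that rule Sesn2, Gclm and Gclc, chosen after their values were seen. The genes most alike are the 5 of highest Pearson r. Alternatives were no filter, a stricter filter, averaged probe sets, further quantile normalization, median centring, no sex term, a Y-linked covariate, arrayWeights, trend and robust eBayes, the compared arrays alone, leaving out the 3 opposing arrays, and leaving out each array in turn. Promoter windows came from RefSeq.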

Additional observations from a re-analysis of the deposited data

Results flagged for a closer look

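The GATA1s difference at E14.5 minus that at E12.5 was above 0 by an interaction test in limma over both backgrounds, for Slc7a11 (1.20 ± 0.28 on the log2 scale, adjusted p = 0.0429) and Ddit3 (1.15 ± 0.25, adjusted p = 0.031). The WT and WT/GATA1s arrays in this contrast are those through which Slc7a11, and with it the set, was chosen, so it is no independent support. Over the alternatives the adjusted p ran from 0.0021 to 0.422 for Slc7a11 and from 0.0116 to 0.365 for Ddit3. The call was lost under 18 of 26 alternatives for Slc7a11 and under 15 of 26 for Ddit3, and the direction held under all of them. No group held the 4 samples that a check for outlying samples needs.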

How the results depend on the processing

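Of 3750 values of single members under the alternatives, 3611 kept their direction and side of the threshold, 108 lost a call, 31 gained one and none reversed. Counts of members called moved by over 1.5 times as follows; the causes were not tested. For WT/GATA1s against WT at E12.5 (1) the count was 0 with no filter, median centring, no sex term, the Y-linked covariate, without the 3 opposing arrays or with the compared arrays alone, and 2 with quantile normalization. For the same groups at E14.5 (4) it was 2 with no filter, centring or no sex term and 0 with the compared arrays alone. For ERG/GATA1s against ERG Tg at E12.5 (1) it was 2 with quantile normalization, 0 with centring, arrayWeights or without the 3 arrays, and 3 with the compared arrays alone. At E14.5 (4) it was 2 with the Y-linked covariate, 1 without the 3 arrays and 0 with the compared arrays alone. For ERG Tg against WT at E14.5 (1) it was 0 with the compared arrays alone. For the GATA1s difference between stages (2) it was 0 with no filter, no sex term, the Y-linked covariate or without the 3 arrays, and 1 with quantile normalization, centring or arrayWeights. Leaving out each array in turn, the counts ran from 2 to 3 for WT/GATA1s against WT (0 to 2 at E12.5, 2 to 4 at E14.5), 3 to 4 for ERG/GATA1s against ERG Tg (0 to 2 and 1 to 4), 0 to 0 for ERG Tg against WT (0 to 0 and 0 to 1), 4 to 5 for ERG/GATA1s against WT, 0 to 0 for ERG/GATA1s against WT/GATA1s, 6 to 7 for the stages, 0 to 3 for the GATA1s difference between stages and 0 to 0 for that with ERG. No paired analysis was possible because the labels carry no replicate numbers; the 1 array labelled female and 1 labelled male of each group were matched through the sex term. With 2 arrays a group, single-stage results rest on a spread shared over all groups.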

Other observations

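Related gene groups are described between the stages too (E14.5 against E12.5 as a mean over the 4 genotypes). Of all probe sets 56.2% passed there in limma, 29% higher and 27.2% lower. With shares that high, the counts below are a description and do not by themselves set these groups apart. Of 13 regulators and effectors of the integrated stress response 7 fell and 1 rose, led by Sesn2 (-1.67 ± 0.07, adjusted p = 2.16e-09), Atf3 (-1.33 ± 0.12, adjusted p = 1.12e-06) and Herpud1 (-0.77 ± 0.12, adjusted p = 9.87e-05). Of 13 chaperones and folding enzymes of the endoplasmic reticulum 8 rose and none fell, among them Creld2 (1.02), Pdia6 (0.87) and Dnajc3 (0.73). Of 9 NRF2 targets 6 rose and 1 fell, with Hmox1 at 0.97 and Nqo1 at 0.74, and of 4 eIF2alpha kinases 3 rose, by 0.34 to 0.47.

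The amino acid groups were mixed between the stages. Of 11 synthetases 2 rose and 1 fell, with Sars at 0.62 and Iars at -0.71. Of 7 transporters 4 fell and none rose, with Slc7a1, the arginine carrier, at -0.60. Of 6 further enzymes of serine, one-carbon and proline metabolism 3 rose and 2 fell, with Cth, which makes cysteine, at 1.05 and Aldh18a1 at -0.45. All 8 measured hepatocyte markers rose over the same interval (median 1.70).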
